A study of Mus musculus with 4 samples.

Results

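The forkhead genes outside the endoderm group were examined for nearby binding of MIXL1, a homeodomain protein of the primitive streak. The group held the 39 protein-coding mouse genes whose symbols are Fox, a letter and a number, without Foxa1, Foxa2, Foxa3, Foxf1 and Foxh1, out of 21523 protein-coding genes in the RefSeq gene table. Of the 9598 MIXL1 peaks in the deposited list, 62 lay inside or within 100 kb of the span of these genes, and no peak was shared by 2 of them. Chromatin came from mouse epiblast stem cells (EpiSC), cultured pluripotent cells that resemble the epiblast after implantation, which were kept on irradiated embryonic fibroblasts in medium with activin A at 20 ng/mL and bFGF at 10 ng/mL. The cells carried an inducible FLAG-tagged Mixl1 gene, formed embryoid bodies in serum for 2 days and received 1 µg/mL doxycycline for the last 24 h. Of the 4 libraries, 2 were FLAG precipitations (anti-FLAG M2) and 2 were input chromatin, and all came from cells with doxycycline, so every peak was recorded under induced MIXL1 and not under the endogenous gene alone. The labels do not say whether the 2 replicates came from separate lines. The libraries enter the results only through 1 list of positions without scores, so no value has a replicate error, the depth per library is unknown, and the cell type could not be checked against marker genes.

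Forkhead proteins bind DNA through a winged-helix domain, and the family takes part in germ layer formation, neural crest, organ growth and the response to insulin. Foxa2 and Foxh1, of the group left out here, act with Nodal signalling in the streak and its endoderm. The other members have roles that lie mostly later or elsewhere: Foxc and Foxd genes in mesoderm and neural crest, Foxp genes in the nervous system, and FoxO genes as targets of the kinase Akt. MIXL1 belongs to the paired-type homeodomain proteins, which bind TAAT sites alone or as pairs facing each other.

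Promoter sequence was read for the members whose listed start sites lay closest to peaks, so that the start regions can be seen beside the binding data. Members without a listed start could not be ranked in this way. RefSeq start windows of GRCm38.p6 (mm10), from 250 bases before to 50 after a start, were listed for 25 of the 39 members in 28 windows. Foxn3 and Foxn1 were the only members with a peak within 5 kb of a listed start, and Foxd3 is shown because its 3 peaks all lay on its upstream side. Capitals mark the homeodomain core TAAT on either strand, including where 2 cores overlap.
Foxn3, chr12:99450025-99450324, minus strand: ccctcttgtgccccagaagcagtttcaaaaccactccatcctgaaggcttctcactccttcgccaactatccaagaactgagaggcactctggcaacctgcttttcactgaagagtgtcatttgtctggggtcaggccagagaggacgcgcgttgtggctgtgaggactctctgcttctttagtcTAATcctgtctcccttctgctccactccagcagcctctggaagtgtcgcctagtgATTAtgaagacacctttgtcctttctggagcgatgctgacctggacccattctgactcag
Foxn1, chr11:78386559-78386858, minus strand: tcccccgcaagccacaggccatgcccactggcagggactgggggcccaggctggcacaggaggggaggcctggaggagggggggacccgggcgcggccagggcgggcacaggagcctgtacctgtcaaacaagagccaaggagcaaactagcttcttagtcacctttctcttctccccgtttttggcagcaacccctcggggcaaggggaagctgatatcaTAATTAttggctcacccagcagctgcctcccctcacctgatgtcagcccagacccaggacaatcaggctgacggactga
Foxd3, chr4:99656049-99656348, plus strand: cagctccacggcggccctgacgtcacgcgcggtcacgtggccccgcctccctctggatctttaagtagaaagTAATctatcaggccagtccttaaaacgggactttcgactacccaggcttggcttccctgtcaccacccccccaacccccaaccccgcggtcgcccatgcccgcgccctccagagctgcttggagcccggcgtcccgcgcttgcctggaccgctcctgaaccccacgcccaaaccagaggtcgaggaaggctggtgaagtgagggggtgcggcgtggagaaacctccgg
The Foxn3 and Foxn1 windows held 2 TAAT cores each, which overlap in Foxn1, and the Foxd3 window held 1.

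None of the 28 start windows of forkhead genes overlapped a peak, beside 1.38% of the 32851 start windows in the table (453). With so low a share and only 28 windows, a count of 0 does not set these genes apart. The nearest peaks to the 3 starts shown were 4.88 kb away for Foxn3, 3.70 kb for Foxn1 and 54.4 kb for Foxd3. The listed Foxn3 start, at 99450074, lies inside the gene span and not at its 5′ end, 99563667. No listed window covers that 5′ end, and 2 peaks in the span ended 1.97 and 0.941 kb from it. TAAT was present in 13 of the 28 windows (46.4%), against 58.0% of all windows. Palindromes of the paired homeodomain type, TAAT followed by ATTA with 3 or with 2 bases between, read alike on both strands. They were in 0 of the 28 windows and in 0.487 and 0.390% of all windows, shares too low for 28 windows to show a difference. The forkhead letters TGTTTAC were likewise in 0 windows, against 3.65% of all. TGTTTGC was in 2 (7.14%, at Foxj3 and Foxp1) against 5.07%, and CAGAC, the SMAD letters, in 10 (35.7%) against 49.6%. Start windows of these genes were richer in G and C, with a median of 62.8% against 52.7% over all windows. All letters were searched on both strands, and each TAAT-ATTA palindrome also counts as TAAT.

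Forkhead genes outside the endoderm group were near MIXL1 peaks about as often as protein-coding genes in general. At least 1 peak lay inside or within 100 kb of 21 of the 39 genes, or 53.8% (95% Wilson interval 38.6 to 68.4), beside 52.8% of all protein-coding genes. The median was 1 peak per gene in both. The median distance to the nearest peak was 90.5 kb for the 39 genes and 89.3 kb for all genes. 3 or more peaks were found at 7 members (17.9%, interval 8.98 to 32.7), beside 13.7% of all genes. At the edge of the window, Foxr1 was the last member inside, with its nearest peak at 98.8 kb, and Foxk2 the first outside, at 105 kb. The 21 genes with a peak were Foxn3 with 19, Foxn4 with 6, Foxp1 with 5, Foxp4 with 4, Foxd3, Foxn1 and Foxo6 with 3 each, 5 genes with 2 and 9 genes with 1.

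**Figure D1:**
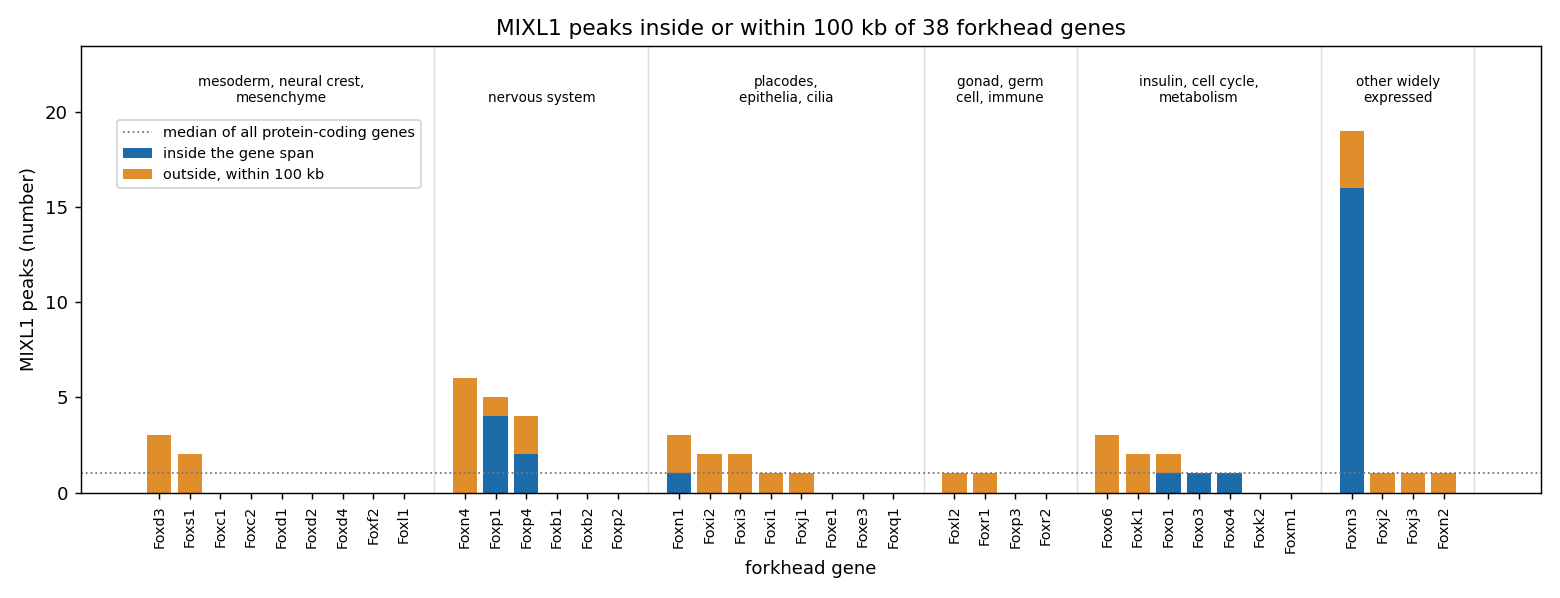
MIXL1 peaks (y axis, number) at 38 of the 39 forkhead genes (x axis), grouped by role, with peaks inside the gene span in blue and peaks outside but within 100 kb in orange. Foxn3 stands at 19, the next gene, Foxn4, at 6, and 17 of the genes drawn have none.

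Other distances gave shares on the same side of the background but inside the counting intervals. Within 20 kb, 13 members (33.3%, interval 20.6 to 49.0) had a peak, beside 24.7% of all genes. Within 50 kb the numbers were 15 members (38.5%) and 37.5%, and within 200 kb 29 members (74.4%) and 70.3%. A peak lay inside the gene span at 7 members (17.9%, interval 8.98 to 32.7), beside 12.6% of all genes. These 7 were Foxn3, Foxp1, Foxp4, Foxn1, Foxo1, Foxo3 and Foxo4, and they held 26 of the 62 peaks. For no distance did the background lie outside the interval of the members.

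**Figure D2:**
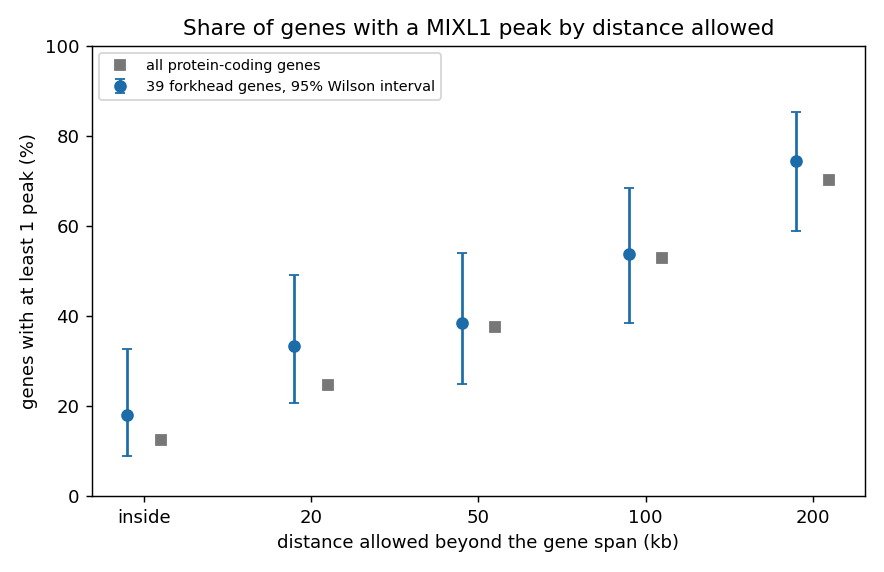
Share of genes with at least 1 MIXL1 peak (y axis, %) inside the gene span or within 20, 50, 100 and 200 kb (x axis), for the 39 forkhead genes (circles with 95% Wilson intervals) and all protein-coding genes (squares). At 100 kb the values are 53.8 and 52.8%, and each square falls within the interval beside it.

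Gene length differed between the members with and without peaks. The median span was 20.3 kb for the 21 with a peak and 3.10 kb for the 18 without, and a longer gene has a longer window. Among members under 10 kb, 9 of 22 (40.9%) had a peak within 100 kb, beside 44.2% of all genes of that length, and 1 of 22 had a peak inside, beside 2.75%. Among those of 10 to 100 kb it was 10 of 14 (71.4%, interval 45.4 to 88.3), beside 55.7%, with 4 of 14 having a peak inside, beside 1367 of all 11422 genes of that length (12%). Of the 3 members over 100 kb, Foxn3 and Foxp1 had peaks both within 100 kb and inside, beside 66.3 and 46.9% of all genes of that length. Without chromosomes 12 and X, where peak density stands apart, 19 of 34 members (55.9%) had a peak within 100 kb, beside 53.5% of all genes. The number of other protein-coding genes in the windows ran from 0 to 11 with a median of 2 for members with a peak, and from 0 to 7 with a median of 3 for those without. Per Mb of window, with a peak counted once in each gene window it falls in, members had 6.19 peaks and all protein-coding genes 4.71. Without Foxn3 the members had 4.56.

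**Figure D3:**
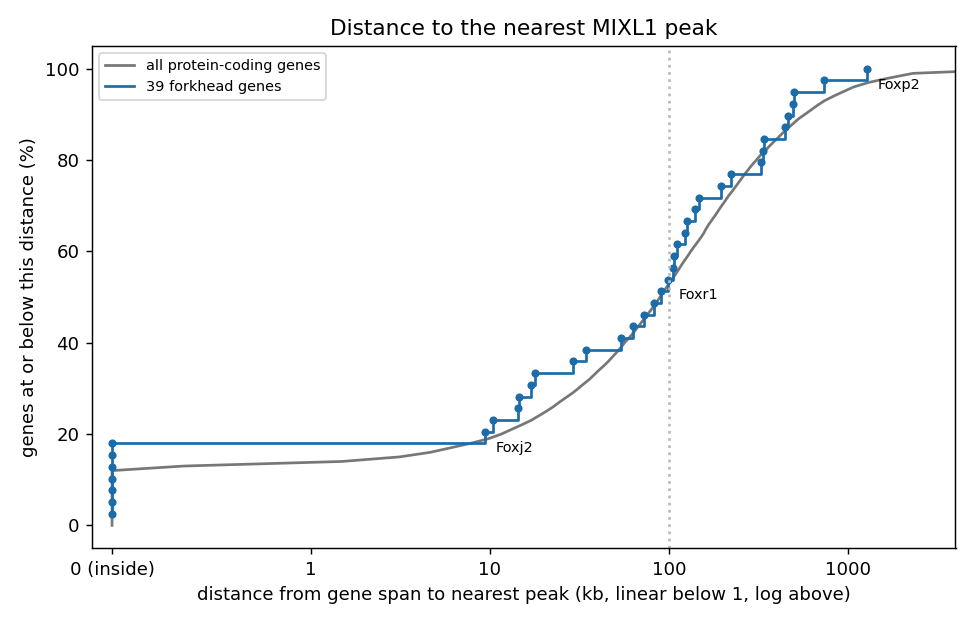
Distance from the gene span to the nearest peak (x axis, kb, linear below 1 and log above) against the share of genes at or below it (y axis, %), for the 39 forkhead genes (blue steps and points) and all protein-coding genes (grey). The curves cross 100 kb (dotted line) at 53.8 and 52.8%, and Foxp2 is the forkhead gene farthest from a peak, at 1285 kb.

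Not every peak in a window lay closest to the forkhead gene. The forkhead gene was the nearest protein-coding gene for 35 of the 62 peaks, while 27 lay nearer to another gene, 12 of them inside it. Over all protein-coding genes, 9403 peaks were counted 25199 times in gene windows, so peaks in several windows were common. The split by nearest gene was not counted over all of these, so it does not set the forkhead genes apart. By nearest gene, 12 members (30.8%, interval 18.6 to 46.4) had at least 1 peak within 100 kb, beside 20.9% of all genes. Foxn3 was nearest to 17 peaks, and the other 11 genes together to 18. At 9 members with a peak, such as Foxn4, Foxo6 and Foxs1, no peak was nearest to the forkhead gene.

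Foxn3 encodes a repressor known as a checkpoint suppressor and is widely expressed. Its span of 374 kb (chromosome 12, 99190081 to 99563667) held 16 peaks, and 3 more lay within 100 kb. These 19 peaks were 30.6% of all peaks at the 39 genes. The listed start lies inside the span, at 99450074. The peak nearest to this start lay 4.88 kb on its downstream side at 99444157 to 99445196 and was 1040 bp wide. Those next in distance lay on the upstream side at 99481552 to 99482158 (607 bp, 31.5 kb away) and at 99493090 to 99493609 (520 bp, 43.0 kb). Of the 16 peaks in the span, 11 lay downstream of that start and 5 upstream of it.

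The peaks ran along the whole of Foxn3. Gaps between neighbouring peaks in the span were 0.602 to 52.1 kb, with a median of 24.1 kb. A neighbour no more than 10 kb away was found for 10 of the 19 peaks, but that share was not counted over all peaks. A pair at 99561385 to 99561697 and 99562299 to 99562726, singled out after their positions were seen, ended 1.97 and 0.941 kb from the higher-coordinate end of the span, which is its 5′ end. The widest, also singled out afterwards, was 4859 bp (99504692 to 99509550), whereas the median over the 19 was 519 bp and over all peaks on assembled chromosomes 485 bp. On the far side of the gene's 5′ end, a peak of 1615 bp and a peak of 444 bp lay 75.8 and 78.6 kb upstream, both nearer to Efcab11, and on the 3′ side a peak of 340 bp lay 40.4 kb beyond the span.

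**Figure D4:**
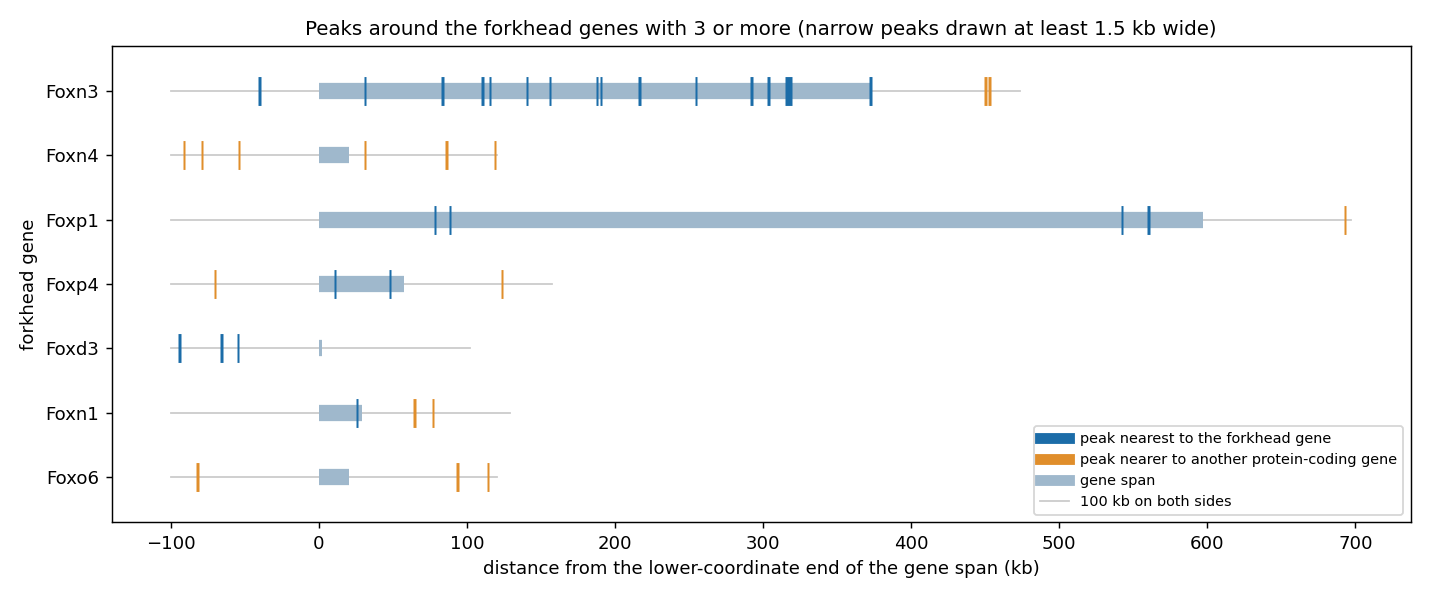
Peaks around the 7 forkhead genes with 3 or more, by distance from the lower-coordinate end of the gene span (x axis, kb), with the span as a pale bar, peaks nearest to the forkhead gene in blue and peaks nearer to another gene in orange. Foxn3 is lined with 16 peaks, Foxp1 has 4 in 2 groups at either end of its span, and all 6 peaks of Foxn4 and 3 of Foxo6 are nearer to other genes.

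Peaks were dense on chromosome 12 as a whole, with 1.32 per 100 kb against 0.341 on the other autosomes. Of the protein-coding genes of that chromosome, 91.2% had a peak within 100 kb, with a median of 3 peaks. Foxn3 had 4.28 peaks per 100 kb of its span, while the 100 genes of the chromosome with spans of 100 kb or more, Foxn3 included, had a median of 0.980. Of these, 6 were denser than Foxn3, among them Esrrb (7.48) and Eml1 (6.53), and only Rad51b held more peaks, at 22. Of 2325 genes of that length on other chromosomes, 7 were denser and the median was 0. The 1-Mb window from position 99 Mb held 31 peaks, beside 14 and 18 in the windows before and after it. All 19 peaks at Foxn3 are among the 31, so this count is not separate from that of the gene. Over all protein-coding genes, 38 had more than 19 peaks within 100 kb. The part of the density of chromosome 12 in the peaks of Foxn3 was not tested.

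**Figure D5:**
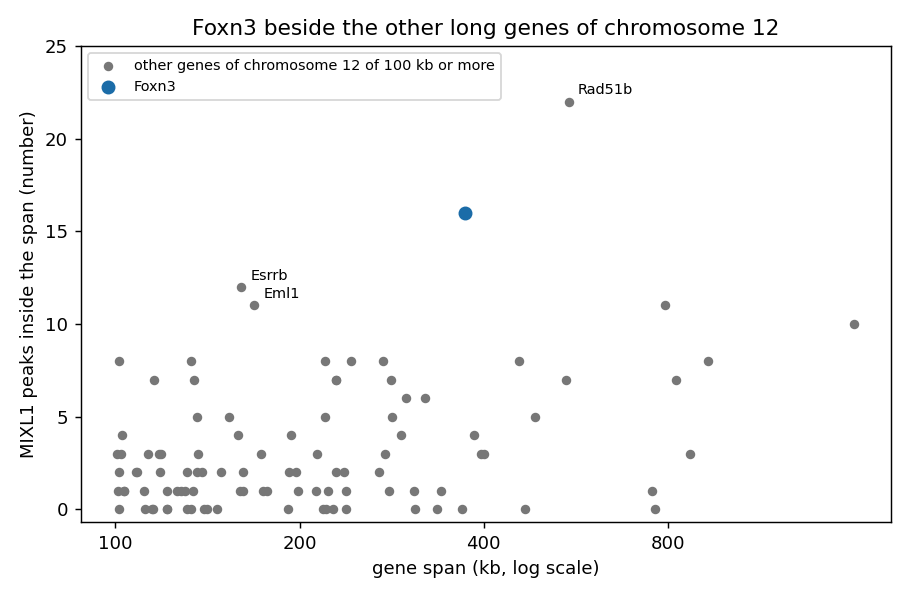
Peaks inside the gene span (y axis, number) against span (x axis, kb, log scale) for the 100 genes of chromosome 12 with spans of 100 kb or more. Foxn3 (blue, 374 kb) has 16 peaks and Rad51b has 22, while Esrrb and Eml1, with shorter spans, have 12 and 11.

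Among the genes of mesoderm, neural crest and mesenchyme, all under 10 kb in span, 2 of 9 had a peak (22.2%, interval 6.32 to 54.7), and the interval holds the 44.2% of all genes of that length. Foxd3, required in early pluripotent cells and neural crest (chromosome 4, 99656299 to 99658671), had 3 peaks, all upstream and all with Foxd3 as the nearest protein-coding gene. They lay at 99600887 to 99601895 (1009 bp, 54.4 kb away), at 99589788 to 99590335 (548 bp, 66.0 kb) and at 99561539 to 99561913 (375 bp, 94.4 kb). The gene and its start window shown above were free of peaks. Foxs1, a gene of pericytes, had 2 peaks at 29.3 and 99.0 kb, both inside other genes, Ttll9 and Xkr7.

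The remaining 7 genes of this group had none. Foxc1 of paraxial mesoderm and vessels and Foxf2 of mesenchyme, neighbours on chromosome 13 with the hair gene Foxq1, had their nearest peaks at 148, 327 and 342 kb. Foxc2 and Foxl1, which lie beside Foxf1 on chromosome 8, had theirs at 123 and 111 kb. Foxd1 of kidney stroma, Foxd2 and Foxd4 had theirs at 195, 463 and 498 kb. Foxc1 and Foxf2 were measured to the same nearest peak, as were Foxc2 and Foxl1, and Foxd2 and the lens gene Foxe3. These pairs are not independent observations.

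In the nervous system group 3 of 7 genes had a peak (42.9%, interval 15.8 to 75.0), beside 52.8% of all genes. Foxn4, which directs retinal amacrine and spinal V2 fates (chromosome 5, 114254164 to 114274418), had 6 peaks, with the nearest upstream at 114284770 to 114285612 (843 bp, 10.4 kb) but closer to Myo1h. The next were at 114199456 to 114199711 (256 bp, 54.5 kb), inside Acacb, and at 114339732 to 114340291 (560 bp, 65.3 kb), inside Myo1h. None of the 6 was nearest to Foxn4.

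The Foxp genes encode factors of brain, lung and immune development and fell into a pair with peaks and a pair without. Foxp1 (chromosome 6, 98925342 to 99522746), of 597 kb, had 4 peaks in its span, at 99002837 to 99003762 (926 bp), 99013159 to 99014122 (964 bp), 99467194 to 99467506 (313 bp) and 99484936 to 99485489 (554 bp). A stretch of 453 kb without a peak separated the first pair from the second. A further peak of 279 bp at 99617514 to 99617792 lay 94.8 kb upstream, nearer to Eif4e3. Foxp4 (chromosome 17, 47867133 to 47924632) had peaks inside at 47877411 to 47877794 (384 bp) and at 47914393 to 47915502 (1110 bp, 9.13 kb from the start). Outside lay those at 47990031 to 47990366 (336 bp, 65.4 kb) and 47796146 to 47796434 (289 bp, 70.7 kb), both nearer to other genes.

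Foxp2, the gene linked to vocal learning, is nearly as long as Foxp1 at 541 kb, lies on the same chromosome and had no peak nearer than 1285 kb. Per 100 kb of span, Foxp1 had 0.670 peaks and Foxp2 had 0. A long gene without a peak in its span was common, since 1267 of the 2325 genes of 100 kb or more outside chromosome 12 (54.5%) had none. Foxp3, the regulatory T cell gene on chromosome X, had its nearest peak at 127 kb. The diencephalon gene Foxb1 and its relative Foxb2 had theirs at 497 and 336 kb.

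Of the genes of placodes, epithelia and cilia, 5 of 8 had a peak (62.5%, interval 30.6 to 86.3), beside the same 52.8%. All but Foxn1 are under 10 kb in span, and 44.2% of all genes of that length had a peak. The interval holds both shares. Foxn1, the thymic epithelium gene mutated in nude mice (chromosome 11, 78357577 to 78386783), had 3. A peak of 251 bp at 78382655 to 78382905 lay inside it, 3.70 kb from the start shown above, and is the closest of the 62 to a listed start. The others, at 78421468 to 78421987 (520 bp, 34.7 kb) and 78433969 to 78434374 (406 bp, 47.2 kb), lay upstream and nearer to Slc13a2. The Foxi genes of placodes, inner ear and skin all had peaks. Foxi2 had 2, at 17.0 kb with Foxi2 as the nearest gene and at 71.4 kb, nearer to Clrn3. Foxi3 had 2, at 34.6 kb inside Tex37 and at 60.1 kb with Foxi3 as the nearest gene. Foxi1 had 1 at 82.2 kb inside Dock2. Foxj1, the motile cilia gene, had 1 at 90.5 kb, nearer to Evpl. Foxe1 of thyroid and Foxe3 of lens had none nearer than 224 and 446 kb.

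In the gonad, germ cell and immune group 2 of 4 genes had a peak, beside 52.8% of all genes, and both peaks lay over 50 kb from the gene. The peak of Foxl2, the ovarian granulosa gene, was 63.0 kb away inside Gm1123, and that of Foxr1 98.8 kb away and nearer to Cxcr5. Foxr2, like Foxp3, is on chromosome X, and its nearest peak lay at 141 kb. Both members of this group without a peak are thus on chromosome X, where 12.6% of the protein-coding genes had a peak within 100 kb.

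FoxO genes had peaks in all 4 cases, and in 3 of them inside the gene, beside 12.6% of all genes with a peak inside. The 3 peaks inside were narrower than the median of the list, so none of them remained with the wider 50% of the peaks, which left 3 members with a peak in the span. Foxo1 (81.8 kb in span) had a peak of 248 bp inside, 62.5 kb from its start, and another of 632 bp at 93.9 kb, with Foxo1 nearest to both. Foxo3 had 1 peak of 447 bp inside, 65.7 kb from its start. Foxo4 had 1 peak of 281 bp at 101254883 to 101255163, which begins 0.622 kb into the span (chromosome X, 101254261 to 101260873). The strand and start of Foxo4 were not listed, so the distance of this peak from the start is unknown. Chromosome X held only 71 peaks, and 2.60% of its 963 protein-coding genes had a peak in the span. Foxo6 had 3 peaks, at 120359972 to 120360588 (617 bp, 72.7 kb), 120184403 to 120185220 (818 bp, 81.9 kb) and 120380857 to 120381449 (593 bp, 93.6 kb), none of them nearest to it. A group of 4 genes is too small to set apart from the background of 52.8%.

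Genes that act on FoxO proteins had peaks in 15 of 24 cases (62.5%, interval 42.7 to 78.8), also not apart from the 52.8%. Igf1r, the IGF receptor gene, had 4 peaks, 3 of them inside, and Irs2, an adaptor of insulin signalling, had 3, of which 2 were inside. Akt1 on chromosome 12 and Pik3cb had 3 each. Akt2 had 2, while Irs1, Pik3r1, Ep300 and Crebbp had none.

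Among the other genes of growth and metabolism, Foxk1 had 2 peaks, the nearest at 14.4 kb and with Foxk1 as its nearest gene. Foxk2 and the cell cycle gene Foxm1 had none within 100 kb but had peaks at 105 and 107 kb. Of the remaining widely expressed members, Foxj2, Foxj3 and Foxn2 had 1 peak each at 9.39, 17.9 and 14.6 kb, and only that of Foxn2 was nearest to the forkhead gene.

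The 62 peaks resembled the whole list in width, with a median of 472.5 bp against 485 bp. Peaks of 1 kb or more were 5 of the 62 (8.06%), against 12.5% of all peaks on assembled chromosomes. For the members with a listed strand, 17 peaks lay upstream of the span and 10 downstream. Outside Foxn3, a neighbouring peak no more than 10 kb away was found for 2 of 43 peaks. Neither the sides nor the neighbours were counted over the whole list, so these counts cannot be set against it.

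The 5 endoderm forkhead genes are given only for comparison. Within 100 kb Foxa2 had 3 peaks, the nearest 1.82 kb away, Foxa1 and Foxa3 had 1 each at 31.3 and 75.5 kb, Foxh1 had 1 inside the gene, and Foxf1 had none nearer than 128 kb. That is 4 of 5 genes (interval 37.6 to 96.4), and with so few genes this share cannot be told apart from that of the 39. Among other families of developmental factors, 14 of 19 Sox genes (73.7%, interval 51.2 to 88.2) and 9 of 13 Tbx genes (69.2%, interval 42.4 to 87.3) had a peak within 100 kb. Both intervals overlap that of the forkhead genes and hold the 52.8% of all genes, and the differences were not tested.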

How the data were processed

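The authors deposited 1 list of MIXL1 peaks for 2 FLAG and 2 input libraries, with a chromosome, start and end per peak and no score. The build mm10 and the tools Bowtie2, MACS2, SAMtools and CASAVA 1.8.2 are named in the submitters' processing notes. Not given in the sources used here are the peak threshold, the filters, how input was used and whether replicates were pooled; the name of the deposited list carries abbreviations that may mark filters and a threshold, but no source explains them. Peaks on the 20 chromosomes that carry any (9403) were set against gene spans of the RefSeq table for GRCm38.p6, the assembly of mm10, without genes that begin below 3 Mb, since genes of unplaced scaffolds are listed there too. The table has no exons, so exonic and intronic peaks were not separated, and peak sequences were not used here.

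A peak was counted where it shared a base with the span or the 100 kb on either side. Members, role groups, lists and windows were chosen with earlier results of these data known, so no p-value or set test is given: counts stand beside the share of all protein-coding genes. Wilson intervals (95%) cover counting of genes only, which are not replicates. Members are named, those with 3 or more peaks with positions (the 3 nearest to the gene where there are more than 5; for Foxn3, where 16 lie at distance 0, the 3 nearest to the listed start). Some genes of the set and lists are counted but not reported here by name. Counting was tested on planted peaks. Counts were made in Python 3.11.15 with pandas 2.3.3 and numpy 2.4.6, intervals with scipy 1.17.1 and plots with matplotlib 3.10.9. Positions are 1-based.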

Additional observations from a re-analysis of the deposited data

Results flagged for a closer look

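A further 195 peaks, used in no count of forkhead genes, lay on contigs that are not part of a chromosome. All 39 forkhead genes lie on assembled chromosomes.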

How the results depend on the processing

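The number of forkhead genes with a peak within 100 kb (21) stayed within 1.5 times under every alternative run except the 20 kb window, where it was 13. With the wider 50% of the peaks it was 14, which is just at that limit. The number of peaks (62) moved with the window, to 32 at 20 kb, 37 at 50 kb and 107 at 200 kb, as fewer or more bases were searched. With the wider 50% of the peaks there were 30 peaks, 3 genes with a peak in the span in place of 7, and 5 genes nearest to a peak in place of 12. Foxn3 then had 10 peaks in place of 19, and the share of members with a peak was 35.9%, beside 32.2% of all genes. Width was used in place of a stricter threshold, but without scores its link to peak strength could not be checked. Of 43 values under alternatives, 35 stayed within 1.5 times, but some of these could not move. The count of genes with a peak in the span does not depend on the window. Leaving out predicted genes (Gm and Rik symbols) removes no forkhead gene and could change only the nearest-gene count. The 35 are therefore not a measure of stability. Without 1-Mb windows of 20 or more peaks, Foxn3 itself drops out and 20 of 38 genes had a peak. Neither this setting nor leaving out chromosomes 12 and X gives a value for Foxn3. No paired analysis was possible because the replicates enter only through 1 shared list of peaks, and for the same reason no replicate could be left out. Weak binding below the unknown threshold cannot be seen in a list without scores.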
